A study of Mus musculus with 8 samples.

Results

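The 32 genes described here are germline genes, that is, genes whose main known roles lie in meiosis, in the piRNA pathway and in other steps of germ cell development. They were chosen by name from a fixed list, which was drawn up with earlier results of these data known. Their rows were taken from the count and TPM tables of epiblast-like cells (EpiLCs) of the mouse. All 32 names were found, each in 1 row, among 54281 genes in the tables. EpiLCs are made from embryonic stem cells (ESCs) in culture and model the formative pluripotent state of the pre-streak epiblast. The RNA-seq libraries came from 4 WT lines, named WT7, WT12, WT17 and WT34, and 4 *Tet1* KO lines, named KO1, KO9, KO15 and KO25. All 8 are ESC lines of the B6129S6F1 background, the KO lines carrying the *Tet1* allele tm1Koh, and none received another agent that differed between genotypes. The cells were taken from 2iL medium through 2 days of conversion with bFGF and 1% KOSR, without Activin A. The methods describe WT and KO lines of this kind as littermate pairs, but which lines are partners is not given in the sources used here. Each replicate is a separate ESC line with 1 library, so the spread within a group mixes line, culture and library, and p-values measure that spread alone.

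Genes of this kind are held off in somatic and pluripotent cells by several layers of repression. Many have CpG-dense promoters that gain DNA methylation in the epiblast, and many are bound by a non-canonical Polycomb complex, PRC1.6, whose subunits MGA and MAX recognise the E-box CACGTG and whose subunit E2F6 recognises E2F sites with the core TCCCGC. TET1 oxidises methylated cytosine, and it also occupies many CpG-rich promoters. Comparing KO with WT EpiLCs asks whether transcripts of these genes differ when *Tet1* is disrupted. The list had been drawn up under the name of germline genes silenced by promoter methylation. The files used here hold no methylation values, and 20 of the 32 genes had a mean of 1 TPM or more, so the genes are called germline genes throughout.

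In the tables each library's column has a name with the suffix b1 or b2. The suffix b1 is found for lines WT7, WT17, KO1 and KO9, b2 for the other 4, and neither the labels nor the methods say what the suffix means. Each suffix holds 2 KO and 2 WT lines. Count totals ran from 13916576 to 23680839 per library. *Tet1* had 38.4 to 54.2 CPM (counts scaled to a common library size) in the KO lines and 559 to 851 CPM in the WT lines, which matches the genotype labels. The libraries titled WT12 and WT17 carry the cell line labels WT9 and WT12, and both are named here by their titles. Marker genes of the formative and primed state summed to 273 to 377 TPM per library and naive markers to 32.3 to 60.5 TPM. Of all 54281 genes, 13838 (25.5%) had a mean of at least 1 TPM. Values per library are given below in the order KO1, KO9, WT7, WT17 for b1 and KO15, KO25, WT12, WT34 for b2. Levels of different genes are compared in TPM, which is scaled by transcript length. The tests were made on counts, which are given as CPM, and values per library are in CPM or TPM as marked.

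The promoters of 27 of the 32 genes were found in a RefSeq table of the assembly GRCm38.p6, and *Rnf17*, *Piwil2*, *Spo11*, *Tex15* and *Tex11* were not matched. In the 250 bases before the start, the median CpG count was 15 (lowest 5, highest 31), against 6 over 32817 promoters of the same length. The median ratio of observed to expected CpG was 0.735 in the germline genes and 0.373 in all promoters. The E-box CACGTG occurred on either strand in 13 of 27 promoters (48.1%) and in 6.0% of all promoters. The E2F core TCCCGC, searched on both strands as well, occurred in 10 of 27 (37.0%) and in 16.9% of all promoters, and 4 promoters held both (*Ddx4*, *Mael*, *Sycp3* and *Hormad1*). Among promoters with at least 15 CpGs, the E-box was found in 9 of 15 germline genes (60%) and in 9.82% of 8954 promoters, whereas the E2F core was found in 6 of 15 (40%) and in 42.8%. These are matches of letters in a window, not measured binding. The windows of *Tex101*, *Meioc*, *Hsf2bp* and *Stra8* end 4625, 1869, 1841 and 785 bases from the gene's start in GENCODE M21. They are included in these values, and the lowest CpG count, 5, is that of *Stra8*.

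To show this sequence, the 120 bases before the start are printed 5′ to 3′ on the gene's strand for 6 genes. *Hsf2bp*, *Dmc1* and *Rpl10l* are among the 4 genes of the list with the highest mean TPM, and *Tex19.1*, *Sycp1* and *Fkbp6* had the largest differences between b2 and b1 among genes called. Capitals mark CACGTG, and TCCCGC or its reverse complement GCGGGA. The positions in GRCm38.p6 are chr17:32034509-32034628 on the minus strand for *Hsf2bp*, chr15:79605110-79605229 (minus) for *Dmc1*, chr12:66284402-66284521 (minus) for *Rpl10l*, chr11:121146023-121146142 (plus) for *Tex19.1*, chr3:102936101-102936220 (minus) for *Sycp1* and chr5:135350045-135350164 (minus) for *Fkbp6*. The RefSeq start of *Hsf2bp* lies 1841 bases from the end of the gene in GENCODE M21, so that window may not be the only start in use.
Hsf2bp: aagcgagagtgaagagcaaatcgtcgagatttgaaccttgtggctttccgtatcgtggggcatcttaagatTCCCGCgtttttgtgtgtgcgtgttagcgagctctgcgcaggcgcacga
Dmc1: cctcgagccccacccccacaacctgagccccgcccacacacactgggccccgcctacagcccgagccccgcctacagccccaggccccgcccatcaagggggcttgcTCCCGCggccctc
Rpl10l: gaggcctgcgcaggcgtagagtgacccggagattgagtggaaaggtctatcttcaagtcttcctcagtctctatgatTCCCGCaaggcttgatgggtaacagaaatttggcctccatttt
Tex19.1: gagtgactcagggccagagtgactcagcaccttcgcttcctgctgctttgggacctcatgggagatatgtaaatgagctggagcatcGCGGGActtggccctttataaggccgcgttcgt
Sycp1: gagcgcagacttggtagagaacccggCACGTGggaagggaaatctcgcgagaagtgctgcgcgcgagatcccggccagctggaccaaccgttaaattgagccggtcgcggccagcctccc
Fkbp6: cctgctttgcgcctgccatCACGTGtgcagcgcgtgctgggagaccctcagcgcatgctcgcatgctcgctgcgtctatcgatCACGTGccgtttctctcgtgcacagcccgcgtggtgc

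The printed windows of *Hsf2bp*, *Dmc1*, *Rpl10l* and *Tex19.1* each hold 1 match of the E2F core and no E-box. Those of *Sycp1* and *Fkbp6* hold 1 and 2 E-boxes and no E2F core. They carry between 4 CpGs (*Rpl10l*) and 14 CpGs (*Fkbp6*) in 120 bases, and neither motif was present in all 6.

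Transcripts of the list were detected in all libraries, with at least 1 count from 30 to 32 of the 32 genes in each. A mean of at least 1 TPM over the 8 libraries was reached by 20 of the 32 genes (62.5%), and 15 genes were at or above 1 TPM in every library. Another 9 were under 1 TPM in every library, and 8 crossed that level (*Mov10l1*, *Fkbp6*, *Sycp1*, *Syce1*, *Smc1b*, *Tex11*, *Stra8* and *Taf7l*). *Rnf17* (40.3 ± 4.95 TPM, SD, n = 8 lines) and *Hsf2bp* (28.3 ± 3.54 TPM) were the highest of the list and together made up 36.8% to 49.6% of its summed TPM. No gene of the list was at 0 in all 8 libraries. Of the 32, 28 had enough counts for the test, and *Tdrd9*, *Asz1*, *Spo11* and *Tex101* did not, with 0 to 16 counts per library. RNA came from whole cultures, so expression in fewer cells and less RNA per cell cannot be told apart.

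**Figure D1:**
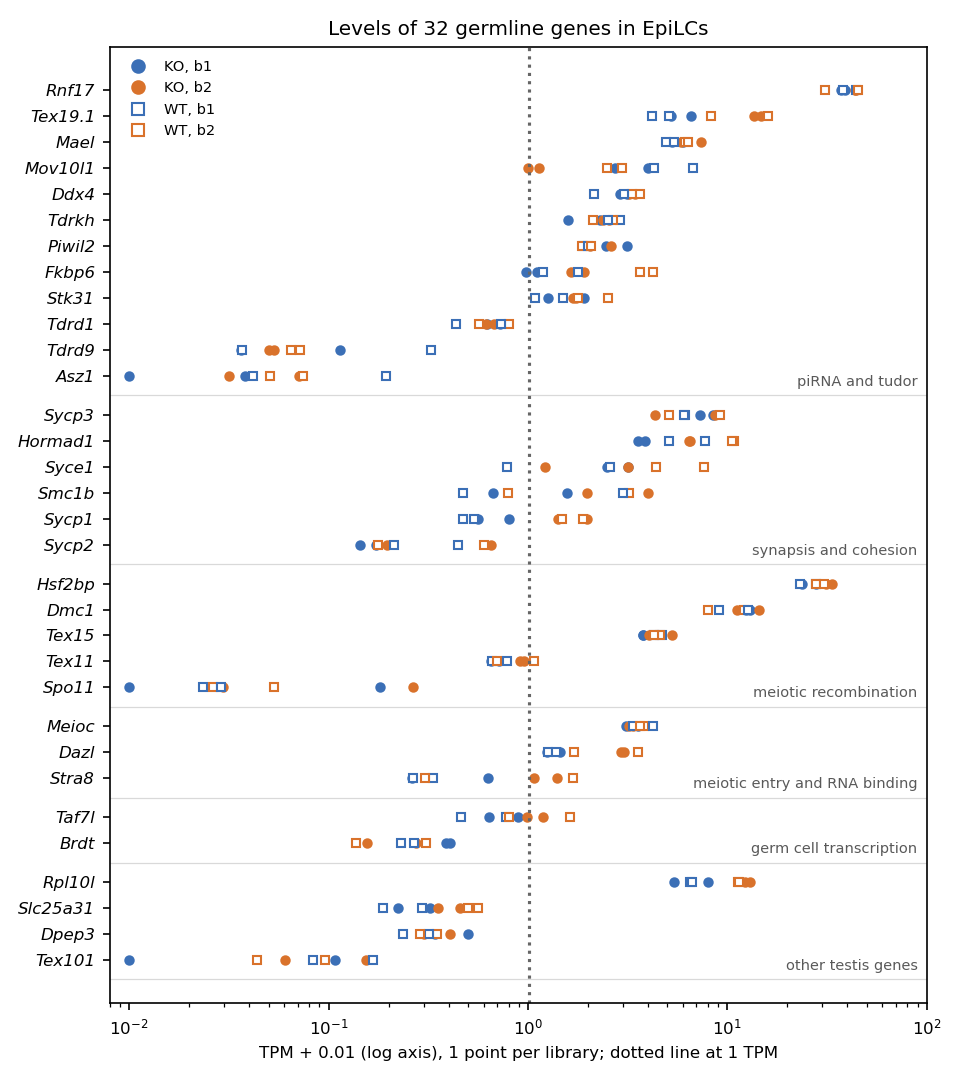
Deposited TPM of 32 germline genes (plus 0.01, log axis), 1 point per library, grouped by role. Circles are KO and squares WT, blue is b1 and orange b2. Rnf17 and Hsf2bp lie far to the right, 20 genes have a mean of at least 1 TPM (dotted line), and for Tex19.1, Sycp1, Dazl and Rpl10l the orange points lie to the right of all blue ones.

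Between KO and WT no gene of the list was called, while between the column suffixes 9 were called and all 9 were higher in b2. The summed TPM of the 32 genes was 154 ± 20.9 in KO and 153 ± 18.1 in WT (SD, n = 4 lines each), with ranges that overlapped. The same sum was 133 to 145 in the 4 b1 libraries and 160 to 179 in the 4 b2 libraries, with no overlap. In KO against WT, edgeR's quasi-likelihood test called 7 of 17272 genes (0.0405%) at an adjusted p under 0.05, 0.0289% higher in KO and 0.0116% lower, with 0 of 28 germline genes higher and 0 lower. Of the 28, 2 had an unadjusted p under 0.05 (970 of all genes did), 16 had a positive estimate, and the median log2 fold change was 0.04, against −0.0044 over all genes tested. DESeq2 called 106 genes (0.614%) in KO against WT, with 0 of the list among them. For no gene of the list did KO and WT ranges separate, in CPM or in TPM, while they separated in CPM for 4.19% of all genes, 2.39% with KO higher and 1.80% with KO lower.

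In b2 against b1, with genotype in the fit, 4253 of 17272 genes were called (24.6%), 13.7% higher in b2 and 11.0% lower. Scaled by library size alone, 43.5% of the genes called were higher in b2, against 55.5% after TMM, with 8 germline genes higher and 0 lower. Of the 28 germline genes, 9 were higher in b2 (32.1%) and 0 lower, and 19 did not pass. The 9 were *Tex19.1*, *Sycp1*, *Fkbp6*, *Taf7l*, *Slc25a31*, *Syce1*, *Rpl10l*, *Hormad1* and *Dazl*. The median log2 difference over the 28 genes was 0.29, against 0.0077 over all genes tested, and 24 of 28 estimates were positive, against 51.0% of all genes. The CPM ranges of b2 and b1 separated with b2 higher for 9 genes of the list (*Ddx4* and *Tex15* in place of *Fkbp6* and *Hormad1*) and with b2 lower for 0, against 13.9% and 12.4% of all genes and 26.3% in either direction. Within KO lines alone and within WT lines alone, all 9 called genes again had positive estimates, and 20 of 28 genes did so in both genotypes. With 2 lines against 2, edgeR called 3 of the 9 within KO (*Hormad1*, *Rpl10l* and *Tex19.1*) and 0 within WT, where 5.79% and 1.54% of all genes were called. The count also depended on single libraries, with 5 germline genes called without WT17 and 11 without WT12. In these fits 18.5% and 27.3% of all genes were called, against 24.6% with all 8 libraries. *Fkbp6*, *Hormad1*, *Rpl10l*, *Sycp1* and *Tex19.1* were called whichever line was left out. The difference in KO effect between b2 and b1 (the interaction of genotype and suffix) was called for 0 of 17272 genes (0%) by edgeR, with 227 at an unadjusted p under 0.05 and 0 of those in the list, and DESeq2 called 2 genes. Estimates of that interaction for the 28 genes ran from −0.75 (*Taf7l*, SE 0.51) to 0.36 (*Tex15*, SE 0.17) on the log2 scale.

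**Figure D2:**
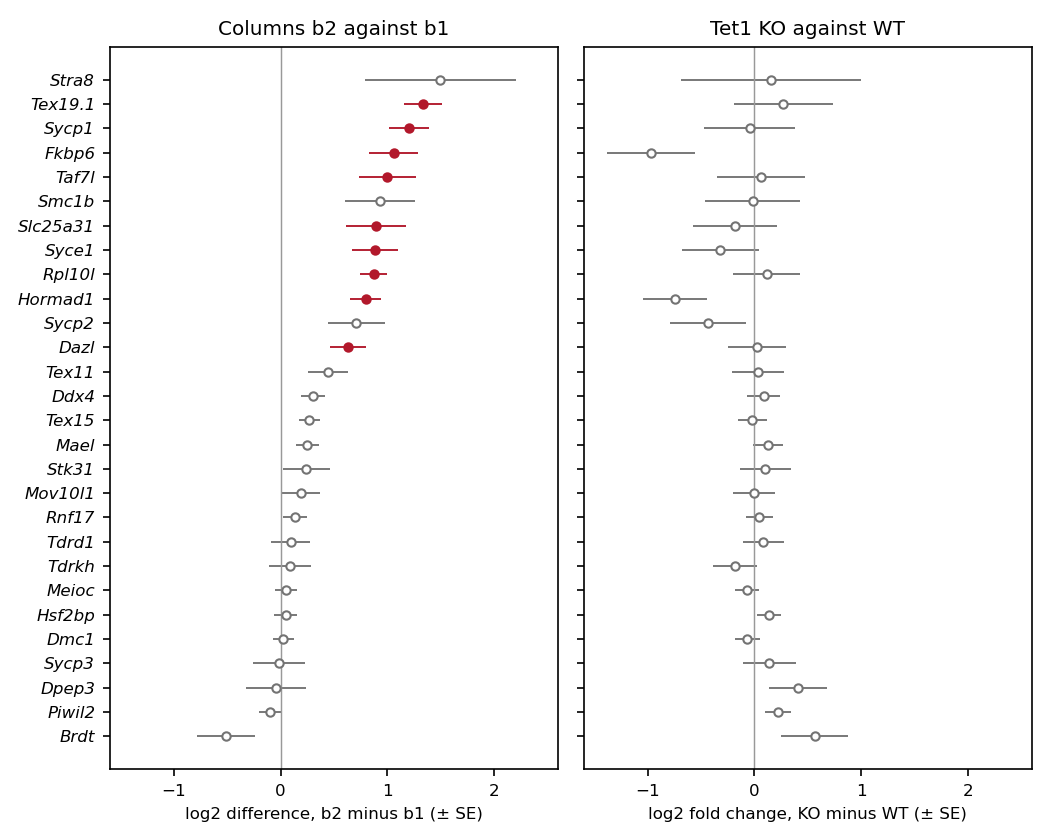
Log2 differences with standard errors for the 28 germline genes tested, b2 minus b1 on the left and KO minus WT on the right, ordered by the left panel. Filled red points have an adjusted p under 0.05. The 9 filled points all lie right of 0 on the left, between 0.63 (Dazl) and 1.33 (Tex19.1), and none is filled on the right.

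By role, the genes called higher in b2 were 3 of 6 genes of synapsis and cohesion, 2 of 10 of the piRNA and tudor group, 0 of 4 of recombination, 1 of 3 of meiotic entry and RNA binding, 1 of 2 of germ cell transcription and 2 of 3 other testis genes, where 13.7% of all genes were higher in b2. These counts are small, that of the piRNA and tudor group is near the share of all genes, and whether roles differ was not tested.

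The piRNA pathway silences transposons in germ cells through small RNAs bound to PIWI proteins, with tudor proteins as scaffolds. *Tex19.1*, a gene that restrains retrotransposons in germ cells and placenta, had 19.7, 21.7, 16.4 and 18.0 CPM in b1 and 51.6, 53.2, 29.0 and 57.8 CPM in b2. All b2 libraries were higher than all b1 libraries, and WT12 was the lowest of the b2 libraries. The mean rose from 18.9 ± 2.24 CPM in b1 to 47.9 ± 12.9 CPM in b2 (SD, n = 4), a log2 difference of 1.33 (SE 0.18, adjusted p = 0.0011), 2.52-fold, with estimates of 1.34 within KO lines and 1.32 within WT lines. Between KO and WT its log2 fold change was 0.27 (SE 0.46, adjusted p = 0.998). Of its 50-base windows, 2.67% also occur in the paralog *Tex19.2*, which had a log2 difference of 0.65 between suffixes (adjusted p = 0.254).

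*Fkbp6*, a co-chaperone that acts in loading of piRNAs and is also found on meiotic chromosomes, had 2.81, 2.66, 5.11 and 2.78 CPM in b1 and 4.20, 4.81, 9.30 and 11.0 CPM in b2. WT34 and WT12 were the highest 2 libraries and WT7 overlapped the b2 KO lines, so the suffix ranges were not separate. The log2 difference between suffixes was 1.06 (SE 0.23, adjusted p = 0.01). Its estimate for KO against WT was the lowest of the list, −0.96 (SE 0.41, adjusted p = 0.856), with an unadjusted p of 0.0429. With the suffix as a block that estimate was −0.86 (SE 0.23, unadjusted p = 0.0042, adjusted p = 0.212), and it was −0.52 within b1 and −1.17 within b2.

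*Rnf17*, a tudor protein needed in spermatids, had 39.0, 37.2, 37.8 and 44.3 TPM in b1 and 43.6, 44.4, 31.1 and 45.4 TPM in b2. The groups overlapped, with WT12 the lowest library. For *Rnf17* the log2 difference between suffixes was 0.13 (SE 0.11, adjusted p = 0.417) and that between genotypes 0.04 (SE 0.13, adjusted p = 0.998). *Mael*, a component of the germ cell granules in which piRNAs are made, had 5.26, 6.01, 4.91 and 5.39 TPM in b1 and 5.83, 7.37, 6.11 and 6.31 TPM in b2, with KO25 the highest. For *Mael* the 2 estimates were 0.25 (SE 0.10, adjusted p = 0.11) and 0.13 (SE 0.14, adjusted p = 0.998). *Ddx4*, the vasa RNA helicase and a classic germ cell marker, had 3.14, 2.90, 2.15 and 3.03 TPM in b1 and 3.19, 3.42, 3.30 and 3.65 TPM in b2. All b2 libraries were above all b1 libraries for *Ddx4*, by a margin that did not pass the test, with a log2 difference of 0.30 (SE 0.11, adjusted p = 0.0733) and a genotype estimate of 0.09 (SE 0.16, adjusted p = 0.998).

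*Piwil2*, the PIWI protein MILI, had 2.44, 3.14, 1.87 and 1.99 TPM in b1 and 2.04, 2.61, 1.86 and 2.06 TPM in b2. Its libraries overlapped in both comparisons, with estimates of −0.10 (SE 0.11, adjusted p = 0.532) between suffixes and 0.22 (SE 0.12, adjusted p = 0.967) between genotypes. *Tdrkh*, a mitochondrial tudor protein of piRNA trimming, had 1.58, 2.29, 2.88 and 2.52 TPM in b1 and 2.37, 2.53, 2.67 and 2.10 TPM in b2. In TPM KO1 was the lowest and WT7 the highest. In CPM KO15 (4.20) and WT7 (4.23) were the lowest and WT12 (6.59) the highest. The estimates were 0.09 (SE 0.19, adjusted p = 0.782) and −0.18 (SE 0.20, adjusted p = 0.998). *Stk31*, which carries a tudor and a kinase domain, had 1.91, 1.25, 1.07 and 1.50 TPM in b1 and 1.72, 1.68, 1.77 and 2.50 TPM in b2. WT34 was the highest library for *Stk31*, and the estimates were 0.24 (SE 0.22, adjusted p = 0.453) and 0.10 (SE 0.24, adjusted p = 0.998). The remaining genes of the group were low, *Tdrd1* at 0.638 TPM, *Tdrd9* at 0.0845 TPM and *Asz1* at 0.0540 TPM on average.

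*Mov10l1*, the helicase that feeds precursor transcripts into the pathway, had differences of opposite sign in TPM and in CPM. Its TPM were 2.74, 3.98, 4.26 and 6.71 in b1 and 1.12, 0.992, 2.48 and 2.96 in b2. In TPM the b2 KO lines were the lowest and WT17 the highest, with the ratio of suffix means at −1.23 on the log2 scale. Its CPM were 4.83, 6.01, 4.29 and 6.26 in b1 and 5.24, 6.86, 6.46 and 5.88 in b2, which overlapped throughout, and edgeR gave a log2 difference of 0.19 (SE 0.18, adjusted p = 0.475) with a genotype estimate of −0.00098 (SE 0.19, adjusted p = 1). On log2(TPM + 1), limma gave −0.92 with an adjusted p of 0.0220. GENCODE M21 holds 5 transcripts of *Mov10l1*, of 265 to 4133 bases. TPM are scaled by the lengths of the transcripts to which reads were assigned in each library, and transcript-level values were not used here, so their part in the result was not tested.

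**Figure D3:**
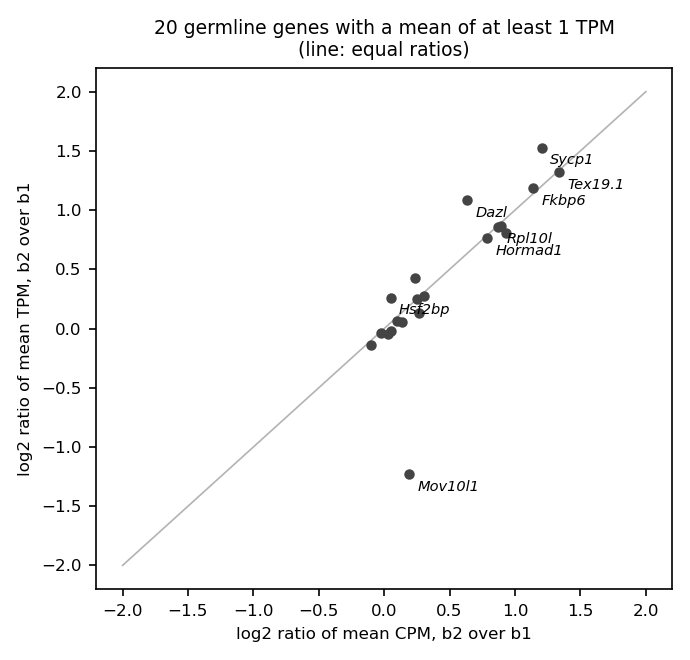
Log2 ratio of the b2 mean to the b1 mean in CPM (horizontal) and in TPM (vertical) for the 20 germline genes with a mean of at least 1 TPM. Mov10l1 lies far from the line of equal ratios, at 0.19 in CPM and −1.23 in TPM. Dazl (0.63 and 1.08), Sycp1 (1.20 and 1.53), Hsf2bp (0.05 and 0.26) and Stk31 (0.23 and 0.42) lie off it to a smaller extent.

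The synaptonemal complex holds homologous chromosomes together in meiosis, and its parts are transcribed in germ cells. *Sycp1*, the transverse filament of the complex, had 3.47, 3.76, 3.46 and 2.78 CPM in b1 and 8.31, 6.35, 7.01 and 9.35 CPM in b2. All b2 libraries exceeded all b1 libraries, with a rise from 3.37 ± 0.416 to 7.75 ± 1.34 CPM (SD, n = 4). The log2 difference was 1.20 (SE 0.18, adjusted p = 0.002), 2.30-fold, while KO and WT overlapped with an estimate of −0.04 (SE 0.43, adjusted p = 0.998). A pseudogene, *Sycp1-ps1*, shares 3.47% of its 50-base windows and had at most 0.0708 CPM.

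*Syce1*, a central element protein, had 2.02, 2.91, 2.36 and 2.64 CPM in b1 and 4.15, 3.57, 6.34 and 4.39 CPM in b2. The b2 libraries were again all higher in CPM, WT12 most of all, although in TPM (0.775 to 3.15 in b1, 1.21 to 7.60 in b2) the suffixes overlapped. *Syce1* had a log2 difference of 0.88 (SE 0.22, adjusted p = 0.0171) and a genotype estimate of −0.32 (SE 0.36, adjusted p = 0.998). *Hormad1*, a protein of the chromosome axis, had 9.05, 9.67, 20.1 and 12.2 CPM in b1 and 16.5, 16.8, 26.6 and 28.2 CPM in b2. WT was above KO within each suffix, and b2 was above b1 within each genotype, whereas WT7 overlapped the b2 KO lines. For *Hormad1* the log2 difference between suffixes was 0.80 (SE 0.14, adjusted p = 0.0044). Its KO against WT estimate was −0.75 (SE 0.30, adjusted p = 0.819), with an unadjusted p of 0.0333. The estimate was −0.79 within b1 and −0.71 within b2. With the suffix as a block it was −0.75 (SE 0.14, unadjusted p = 0.00046, adjusted p = 0.102). That fit called 28 of all genes (0.162%, with 0.116% higher in KO and 0.0463% lower) and 0 of the list. A predicted gene, *Gm15529*, holds 21.4% of the 50-base windows of *Hormad1*, so reads could be split between them, and it had 0 to 0.802 CPM, with 0 counts in all b1 libraries.

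*Smc1b*, the meiotic cohesin subunit, had 5.58, 4.36, 4.07 and 5.04 CPM in b1 and 4.26, 13.5, 11.6 and 6.94 CPM in b2. KO25 and WT12 were the highest, while KO15 lay within the b1 range. For *Smc1b* the log2 difference of 0.93 (SE 0.33, adjusted p = 0.0668) did not pass the test, and the genotype estimate was −0.01 (SE 0.44, adjusted p = 0.999). *Sycp3*, a protein of the lateral element, had 7.29, 8.44, 6.13 and 6.02 TPM in b1 and 4.34, 8.62, 9.18 and 5.08 TPM in b2. No order by suffix or genotype appeared for *Sycp3*, with estimates of −0.01 (SE 0.24, adjusted p = 0.974) and 0.14 (SE 0.25, adjusted p = 0.998). *Sycp2*, its partner in the lateral element, was low at 0.315 TPM on average (range 0.135 to 0.643 TPM), with a log2 difference of 0.71 (SE 0.27, adjusted p = 0.0842).

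Genes of meiotic recombination included some of the highest of the list, and of the 4 tested none was called in either comparison. *Hsf2bp*, which brings BRCA2 to meiotic breaks, had 28.0, 23.8, 27.8 and 23.3 TPM in b1 and 31.2, 33.6, 28.0 and 30.4 TPM in b2. WT17 was the lowest in TPM and in CPM (39.3), while KO25 was the highest in TPM and WT34 in CPM (53.0). The groups overlapped in both comparisons, although in TPM the suffixes only met, at 28.0 TPM in KO1 and WT12. Its log2 difference was 0.05 (SE 0.11, adjusted p = 0.781), and its genotype estimate was 0.14 (SE 0.11, adjusted p = 0.998). *Hsf2bp* overlaps the broadly expressed gene *Rrp1b* on the opposite strand. *Rrp1b* had 125 to 231 CPM and a log2 difference of 0.64 between suffixes (adjusted p = 0.0012). The library kit kept strand, but the strand setting of the quantification is not given in the sources used here. *Dmc1*, the meiotic recombinase, had 12.4, 13.0, 9.02 and 12.6 TPM in b1 and 11.1, 14.4, 12.1 and 7.98 TPM in b2. In CPM it was the steadiest of the 20 expressed genes, with a coefficient of variation of 8.30% over 8 libraries, and its estimates were 0.03 (SE 0.10, adjusted p = 0.883) and −0.06 (SE 0.11, adjusted p = 0.998).

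*Tex15*, needed for repair of meiotic breaks and for transposon silencing, had 39.1, 41.6, 47.9 and 46.0 CPM in b1 and 50.1, 60.1, 50.6 and 49.1 CPM in b2. The b2 libraries were all higher than the b1 libraries in CPM, KO25 by the widest margin. In TPM (3.76 to 4.70 in b1, 4.03 to 5.26 in b2) the suffixes overlapped. Its log2 difference of 0.27 (SE 0.10, adjusted p = 0.0697) did not pass the test, and the genotype estimate was −0.02 (SE 0.14, adjusted p = 0.998). *Tex11*, an X-linked crossover gene, had a mean of 0.796 TPM (range 0.645 to 1.06) and a log2 difference of 0.44 (SE 0.19, adjusted p = 0.115). *Spo11*, the enzyme that makes the breaks, was nearly undetected at 0.0672 TPM, with 0 to 5 counts per library.

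*Dazl*, an RNA-binding protein that licenses germ cells for meiosis, had 4.87, 6.01, 6.49 and 5.56 CPM in b1 and 9.19, 9.41, 6.80 and 10.2 CPM in b2. The b2 libraries were all higher, with WT12 close to the highest b1 value. The log2 difference was 0.63 (SE 0.17, adjusted p = 0.025) in counts and the ratio of means was 1.08 in TPM on the log2 scale, and the genotype estimate was 0.02 (SE 0.27, adjusted p = 0.998). *Meioc*, which holds cells in meiotic prophase, had 3.10, 3.54, 3.37 and 4.21 TPM in b1 and 3.19, 3.37, 3.81 and 3.65 TPM in b2. These values overlapped in both comparisons, with estimates of 0.05 (SE 0.10, adjusted p = 0.773) and −0.07 (SE 0.12, adjusted p = 0.998). *Stra8*, the retinoic acid target that starts meiosis, was at 0.750, 0.752, 0.825 and 0.188 in b1 and 1.97, 1.53, 0.209 and 3.47 in b2 CPM. KO15, KO25 and WT34 were the highest 3 libraries, while WT12, also b2, was among the lowest 2. Its log2 difference was the largest estimate of the list and had the largest error, 1.50 (SE 0.71, adjusted p = 0.154). *Stra8* had 4 to 49 counts per library.

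*Taf7l*, an X-linked germ cell paralog of a TFIID subunit, had 1.92, 2.56, 1.81 and 1.22 CPM in b1 and 4.00, 2.92, 4.59 and 3.26 CPM in b2. All b2 libraries exceeded all b1 libraries in CPM, although in TPM (0.451 to 0.883 in b1, 0.797 to 1.62 in b2) the suffixes overlapped. The log2 difference was 1.00 (SE 0.27, adjusted p = 0.023) and the genotype estimate 0.06 (SE 0.41, adjusted p = 0.998). *Brdt*, the testis bromodomain protein, had the lowest suffix estimate of the list, −0.51 (SE 0.27, adjusted p = 0.2), and the highest genotype estimate, 0.57 (SE 0.31, adjusted p = 0.967), at a mean of 0.261 TPM.

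*Rpl10l*, an autosomal retrogene copy of the X-linked ribosomal protein gene *Rpl10* that serves in spermatocytes, had 10.5, 15.8, 13.4 and 12.3 CPM in b1 and 26.0, 24.3, 21.5 and 23.5 CPM in b2. The b2 libraries were well above the b1 libraries, 23.8 ± 1.86 against 13.0 ± 2.21 CPM (SD, n = 4). The log2 difference was 0.87 (SE 0.13, adjusted p = 0.0018), and the genotype estimate was 0.12 (SE 0.31, adjusted p = 0.998). Its parent gene *Rpl10* had 135 to 204 CPM and a log2 difference in the other direction that did not pass (−0.25, adjusted p = 0.0737), and 7.60% of the 50-base windows of *Rpl10l* occur in another annotated gene, the predicted gene *Gm14460* (at most 0.142 CPM). *Slc25a31*, the germ cell ADP/ATP carrier, had 1.31, 0.902, 0.770 and 1.13 CPM in b1 and 1.45, 1.90, 2.25 and 2.12 CPM in b2. Here too the suffixes separated, at 14 to 54 counts per library, with a log2 difference of 0.89 (SE 0.28, adjusted p = 0.0454) and a genotype estimate of −0.18 (SE 0.40, adjusted p = 0.998). *Dpep3*, a testis dipeptidase gene, had 0.333 TPM on average and a log2 difference of −0.04 (SE 0.28, adjusted p = 0.93), and *Tex101*, a sperm surface protein gene, had 0.0805 TPM.

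**Figure D4:**
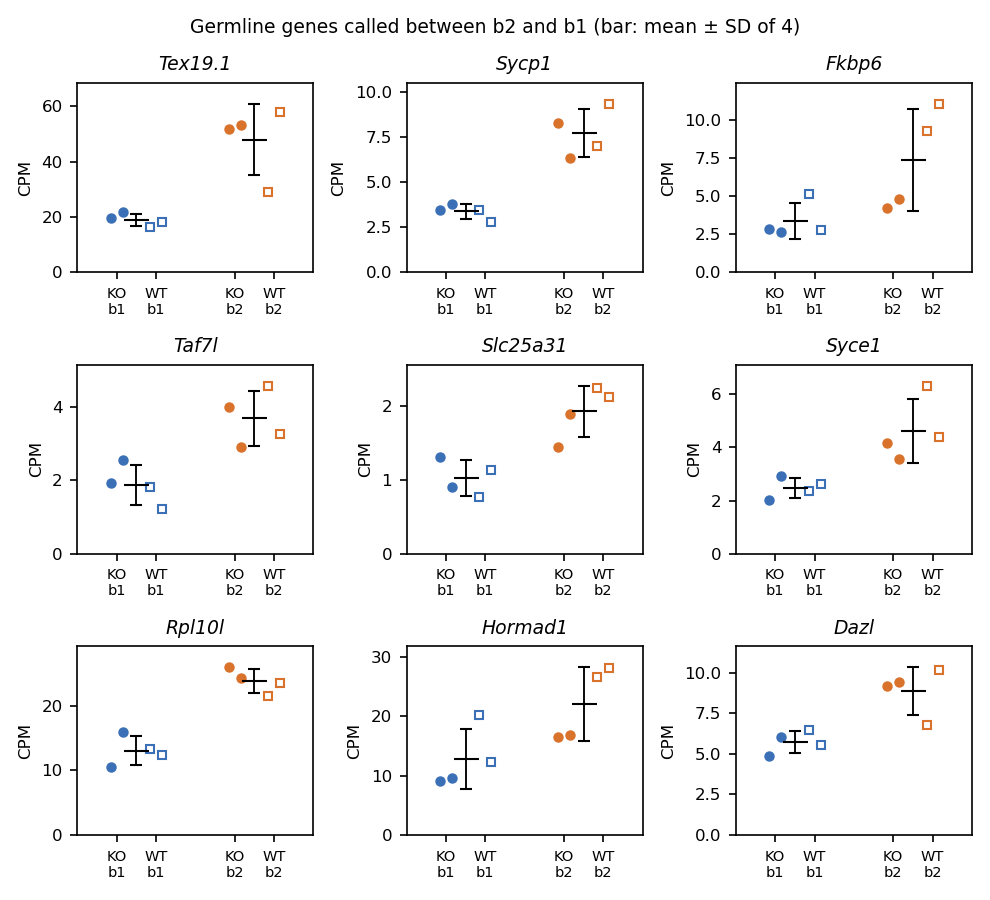
CPM of the 9 germline genes called between b2 and b1, 1 point per line (circles KO, squares WT, blue b1, orange b2), with the mean ± SD of the 4 libraries of each suffix as black bars. The orange points lie above all blue points in 7 panels, and in the Fkbp6 and Hormad1 panels the WT7 library of b1 reaches the KO lines of b2.

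The 9 called genes were found with and without each promoter motif, read beside the 13.7% of all genes that were higher in b2. Among the 24 genes that were tested and had a promoter sequence, 5 of 12 with the E-box were called higher in b2 (*Fkbp6*, *Hormad1*, *Slc25a31*, *Sycp1* and *Taf7l*) and 4 of 12 without it (*Dazl*, *Rpl10l*, *Syce1* and *Tex19.1*). With the E2F core, 3 of 10 were called, and 6 of 14 without it. All 10 tested genes with the E2F core had a mean of at least 1 TPM, as did 7 of 14 without it. The counts are small and were not tested.

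Other genes were read beside these to place the difference between suffixes. A list of 43 other germline genes, with 32 tested, had 0 genes higher in b2 and 2 lower, *Pld6* (log2 difference −0.93, SE 0.19, adjusted p = 0.0079) and *Tdrd5* (−0.81, SE 0.17, adjusted p = 0.0088), both of the piRNA pathway, against 13.7% of all genes higher and 11.0% lower. Its median log2 difference was −0.07, against 0.0077 over all genes tested, and 15 of 32 estimates were positive. The difference between the 2 germline lists was not tested. In KO against WT that list too had 0 genes called, with 3 at an unadjusted p under 0.05.

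Of 12 genes of PRC1.6 and its partners, all above 1 TPM, 3 were higher in b2 and 0 lower, with a median log2 difference of 0.21, where 13.7% of all genes were higher and 11.0% lower. *E2f6* rose from 24.7 ± 2.13 to 36.8 ± 4.23 CPM (SD, n = 4; log2 difference 0.58, adjusted p = 0.0033), *Rybp* by 0.44 on the log2 scale (adjusted p = 0.0012) and *Rnf2* by 0.26 (adjusted p = 0.0153). Of 12 genes of DNA methylation and its removal, *Dnmt3a*, a de novo methyltransferase, was higher by 0.56 (adjusted p = 0.0084) and *Tet3* by 0.99 (adjusted p = 0.00023), and none was lower in b2, so that 2 of 12 is near the share of all genes (median log2 difference 0.13). Of 12 genes of H3K9 methylation and heterochromatin, 2 were higher and 3 lower (median −0.0083), the former near that share as well. In KO against WT the targeted gene *Tet1* was the only gene called in these 3 lists.

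Markers of pluripotent states and of other cell types were read against the same shares of all genes, 13.7% higher in b2 and 11.0% lower, and the lists differed in their counts. Of 8 formative and primed genes, 5 were higher in b2 and 0 lower (median log2 difference 0.76), among them *Wnt8a* (log2 difference 2.73), *Fgf15* (2.69) and *Lef1* (1.02). The summed TPM of that list was 273 to 340 in b1 and 327 to 377 in b2, which overlapped. Of 9 naive genes tested 1 was higher, which is near the share of all genes, and of 4 genes of primordial germ cell specification 2 were higher (*Prdm1*, 1.23, and *Tfap2c*, 0.69), while *Prdm14* and *Nanos3* were too low to test. Their summed TPM overlapped between suffixes, at 40.9 to 53.7 and 32.3 to 60.5 for the naive list and 9.90 to 13.8 and 7.32 to 16.2 for germ cell specification. Of 4 markers of Sertoli cells and somatic gonad 3 were higher, and the sum, mostly *Wt1*, was 4.88 to 7.39 TPM in b1 and 8.91 to 23.1 TPM in b2, while *Amh*, the defining Sertoli marker, had a mean of 0.128 TPM. Of 8 two-cell-like genes only *Zscan4f* was tested, and it was higher by 2.62 (adjusted p = 0.0395). The list summed to 0.0888 to 0.593 TPM in b1 and 0.627 to 6.11 TPM in b2, with at most 0.952 TPM in KO lines. The CPM ranges of *Zscan4f* overlapped between suffixes, and its KO against WT estimate was −2.47, which was not called. Of 4 fibroblast genes tested 1 was lower, with sums of 19.9 to 29.9 TPM in b1 and 5.45 to 17.3 TPM in b2. Of the 4 estimates 2 were positive, with a range from −0.95 to 1.17. The CPM ranges separated with b2 higher for 1 gene and b2 lower for 1 (13.9% and 12.4% of all genes). Only 2 of the 7 genes listed reached a mean of 1 TPM. The highest mean was 15.6 TPM, against a list median of 0.185 TPM, and *Postn* was at 0 in every library. Of 7 extraembryonic endoderm genes 0 were called, with sums of 2.09 to 3.63 and 3.05 to 4.70 TPM. The part of these cell states in the difference of the germline genes was not tested, and since the meaning of the suffix is not stated, anything that differed between the 2 sets of libraries cannot be told apart from it.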

How the data were processed

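RNA-seq libraries of EpiLCs from 4 *Tet1* KO and 4 WT lines were used, grouped by the genotype label. Per the methods and the submitters' processing notes, Trim Galore 0.6.4 was used by the authors for trimming, Salmon 0.14.1 for quantification of transcripts, and tximport (R 4.0.2) for sums over each gene. One deposited table holds the estimated counts per gene that the authors obtained in this way, and another deposited table holds TPM. TPM also depend on the transcript lengths Salmon assigned in each library. Single-end reads cannot place windows shared with a near-identical gene, so those genes are named with their share.

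Estimated counts were rounded to whole numbers. With edgeR 4.0.16 (R 4.3.3), genes were filtered by filterByExpr, normalised by TMM and tested by the quasi-likelihood test, two-sided, and p-values were adjusted by Benjamini-Hochberg over the 17272 genes kept. KO was compared with WT without a block, b2 with b1 with genotype as covariate, and the interaction was tested in all 8 libraries. CPM are rounded counts scaled by the TMM library size, 1 count standing for 0.0417 to 0.0729 CPM. The depth of 13916576 to 23680839 counts leaves genes well under 1 CPM with few counts. Correlations between libraries ran from 0.951 to 0.980 across genes, and none was a copy of another. The scripts were tested on simulated data. In KO against WT 48% of 1.5-fold and 65.3% of 2-fold changes were recovered, with 15 false calls among 153. In b2 against b1 46.9% and 58.3% were recovered, with 9 false calls among 142. The simulated KO against WT data held no difference between suffixes, unlike the real data. Alternatives were other normalisations and filters, DESeq2 1.42.0, limma 3.58.1 on log2(TPM + 1) and log2(TPM + 0.1), the suffix as a block, fits within suffix or genotype, and each line left out.

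All 32 gene IDs matched GENCODE M21 with their version. Promoters are from a RefSeq table of GRCm38.p6. Windows of 50 bases were compared among all GENCODE transcripts.

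The genes and lists were chosen with earlier results of these data known. All 32 genes are named, with values in every library where the mean reached 1 TPM or a test called the gene. Of the other lists, genes with the smallest p are named. *Dnd1*, *Gata4* and most other genes of these lists that were not called between suffixes are given as counts only, also where other genes of their list were called. *Stra8*, *Gm15529*, *Sycp1-ps1*, *Gm14460*, *Rrp1b*, *Postn* and *Amh* were named after their values were seen, and *Sycp2*, *Tex11*, *Brdt* and *Dpep3* are given with their differences for the same reason.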

Additional observations from a re-analysis of the deposited data

Results flagged for a closer look

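Of 112 groups of 4 libraries examined (28 germline genes by KO, WT, b1 and b2), 4 held a library far from the other 3, and chance alone gives about 1 in 20. *Fkbp6* had 5.11 CPM in WT7, against 2.66 to 2.81 CPM in the other b1 libraries, which is why its suffix ranges overlapped. *Smc1b* had 13.5 CPM in KO25, against 4.26 to 5.58 CPM in the other KO lines. *Tex15* had 60.1 CPM in KO25, against 49.1 to 50.6 CPM in the other b2 libraries. *Stra8* had 0.188 CPM in WT17, against 0.750 to 0.825 CPM in the other b1 libraries. No gene of the list moved in opposite directions in every library of the 2 suffixes when KO was compared with WT.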

How the results depend on the processing

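No germline gene, of 20 to 32 tested, was called between KO and WT under any alternative run. These runs called 0.0057% to 0.614% of all genes, so 0 in a list of this size is near that share. The number of all genes called was 106 with DESeq2. It was 2, 3 and 2 with limma on log2(TPM + 1), on log2(TPM + 0.1) and without a filter. With the suffix as a block it was 28, within b1 19, and with 1 line left out 6 to 10. Between b2 and b1, 5 to 11 germline genes were higher with 1 line left out (5 without WT17). Of all genes 2655 to 4807 (14.9% to 27.3%) were then called in either direction, the fewest without KO9 and then WT7. With limma on log2(TPM + 1), 5 of 20 germline genes tested were higher and 1 lower, where 1587 genes (11.5%) were called. With a pseudocount of 0.1 the germline counts were 6 and 1, where 1624 genes (11.7%) were called. Without a filter 3 of 32 were higher, where 848 genes (2.42%) were called. Within KO lines 3 of 28 were higher, where 1014 genes (5.79%) were called, and within WT lines 0 of 29, where 271 (1.54%) were. The interaction gave 2 genes with DESeq2 and 0 to 8 with 1 line left out (8 without WT34, 2 without KO15). At a limit of 5 TPM in place of 1 TPM, 8 genes counted as expressed. No paired analysis was possible because, although the lines are described as littermate pairs, the sources used here do not say which KO line is the partner of which WT line, and the library titles of the genotypes share no number.

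Estimates under alternatives were followed for the germline genes tested that had a mean of at least 1 TPM or a call. Of these 828 estimates, 87 changed sign, 60 of them in KO against WT and 27 between suffixes. None of the 27 was for a gene called between suffixes, and 2, both *Mov10l1*, then had an adjusted p under 0.05. Another 48 no longer passed and 4 newly passed. Outside the genes followed, *Stra8* was called higher in b2 without a filter and without WT12, *Tex11* without WT12 and *Sycp2* without WT34. The cause of these changes was not tested. In KO against WT, sign changes were 0.0140 for Mov10l1 without a filter, −0.0191 for Stk31, 0.0825 for Sycp1, 0.13 for Smc1b and 0.28 for Dmc1 with limma on log2(TPM + 1) with or without its filter, −0.0143, 0.18, 0.27 and 0.30 for the same genes with a pseudocount of 0.1, and 0.0227 for Sycp1, 0.0118 for Smc1b and −9.22e-05 for Dazl with the suffix as a block. Within b1 they were 0.0326 for Mov10l1, −0.0769 for Rnf17, 0.21 for Sycp1, 0.12 for Smc1b, −0.15 for Dazl and 0.21 for Slc25a31, and within b2 −0.00598 for Ddx4, −0.20 for Stk31, −0.0802 for Sycp3, 0.00630 for Dmc1, 0.15 for Tex15 and −0.18 for Taf7l. With 1 line left out the estimates ran from −0.11 to 0.0745 for Mov10l1, −0.32 to 0.30 for Sycp1, −0.55 to 0.36 for Smc1b, −0.15 to 0.0639 for Tex15, −0.11 to 0.23 for Dazl, −0.18 to 0.45 for Taf7l, −0.0685 to 0.32 for Rpl10l, −0.0177 to 0.20 for Ddx4, −0.0471 to 0.14 for Rnf17, −0.50 to 0.0150 for Syce1, −0.40 to 0.0571 for Slc25a31, −0.0234 to 0.36 for Stk31 and −0.11 to 0.00114 for Dmc1.

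Between b2 and b1, sign changes were −0.0382 for Dmc1, −0.0131 for Hsf2bp and −0.0119 for Meioc with library size alone, −0.00194 for Dmc1 without a filter, −0.92 for Mov10l1, −0.0562 for Dmc1 and −0.0126 for Meioc with limma on log2(TPM + 1) with or without its filter, and −1.26, −0.0620 and −0.0147 for these 3 with a pseudocount of 0.1. Within KO lines they were −0.0539 for Tdrkh and −0.0950 for Stk31, and within WT lines 0.20 for Sycp3 and −0.0464 for Dmc1. With 1 line left out the estimates ran from −0.0272 to 0.0900 for Dmc1, −0.24 to 0.21 for Sycp3, −0.0234 to 0.12 for Meioc, −0.0543 to 0.21 for Tdrkh and −0.0393 to 0.12 for Hsf2bp. At this depth some genes under 1 TPM rested on few counts, such as Stra8 with 4 to 49 per library. Others did not, such as Tdrd1 with 89.9 to 205. A difference of the size of a gene's standard error was not detectable.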
